A study of Lotus japonicus with 6 samples.

Results

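The genes described here are the cytochrome P450s of the Lotus japonicus array that belong to families known for making or breaking down plant hormones, apart from the CYP724A and CYP88A families. They were taken as every non-control spot whose name starts with CYP74, CYP85, CYP90, CYP701, CYP707, CYP711, CYP714, CYP715, CYP734 or CYP735 followed directly by a letter. The rule itself reads names and no measured value. The rule found 51 genes of 3469 names on the array, each with 2 probes of 2 spots, which makes 102 of 6358 probes. By the known chemistry of their families in other plants they fall into 15 brassinosteroid, 11 gibberellin, 8 abscisic acid, 8 jasmonate and oxylipin, 4 strigolactone and 1 cytokinin gene, and the 4 CYP715A genes are kept apart because no hormone is assigned to them here. The family codes are the array's own. No sequence or annotation used here could be matched to the names, so membership of a family was not checked further, and close copies within a family may share probe signal.

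Total RNA came from leaves of the MG20 accession, grown in vitro on MS medium. The transgenic group was 3 independent lines labelled as overexpressing LjMyb14, a MYB transcription factor, from the Lotus ubiquitin promoter, which drives expression throughout the plant. The other group was 3 wild type leaf samples of the same accession, and each of the 6 samples had 1 array. The labels call the wild type samples biological replicates, but arrays 1 and 3 of them were closer than repeated spots on a single array. Their values were averaged and counted as 1 sample, so the tests set 3 lines against 2 wild type samples, and the p-values measure only the spread between these samples. Plant age is not given. By the file headers, line 1 and all wild type arrays lay in 1 slide row, and lines 2 and 3 lay in the other. Group and slide row are thus partly confounded for every gene. A fit with the slide row as a block compares only line 1 with wild type.

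Cytochrome P450s are membrane-bound oxygenases, and plants use separate families of them at committed steps of hormone chemistry. In brassinosteroid synthesis CYP90 and CYP85 enzymes add oxygen to a sterol skeleton step by step, and CYP734A enzymes oxidise the active hormone to an inactive form. CYP701A makes a gibberellin precursor, CYP707A starts the breakdown of abscisic acid, CYP74 enzymes divide fatty acid hydroperoxides between jasmonate and volatile products, CYP711A acts in strigolactone synthesis, and CYP735A makes trans-zeatin type cytokinins.

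The level given below is a spot's log2 processed intensity minus the 75th percentile of its array, so 0 is a probe as bright as that percentile. It can be compared between arrays for 1 probe, not between probes. The 75th percentile intensity lay between 364 and 404 on the 6 arrays, the share of spots well above background was 71.7% to 78.0%, and no spot was saturated. A probe was tested where it was well above background on at least 3 of the 6 arrays, and each gene is given at its brightest tested probe. The transgene label could not be read from its own probe: LjMYB14 stayed near background, at -5.79, -4.62 and -6.03 in lines 1 to 3 and -6.07, -5.20 and -5.89 on wild type arrays 1 to 3 (log2 fold change 0.11, limma adjusted p = 0.939). The probe of another MYB, LjMYB76a, was higher in all the lines by 7.54 on the log2 scale (adjusted p = 0.000189), and which parts of the transgene either probe covers is not given. The array carried no leaf marker codes. Of 86 MADS-box genes, the only list for another organ, 19 were not above background on any array. Of the 53 that were tested, 2 were called, where 3.30% of all tested genes were. The summed level of the tested MADS-box genes ran from 17.8 to 20.2 in the lines and from 20.9 to 23.5 in wild type. Its part in the results below was not tested.

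Tests were possible for 48 of the 51 genes, against 2487 genes of the whole array. Each fold change sets the lines over wild type, tested with limma and adjusted by the Benjamini-Hochberg method over all 5038 tested probes, and a gene was called at an adjusted p under 0.05. A single hormone-metabolism P450 was called, CYP90C_LjSGA_038968.1, which was lower in the lines. Over all genes 1.09% were called lower and 2.21% higher, so 1 called gene of 48 (2.08%) is close to the background. The unadjusted p was under 0.05 for 12 genes that were lower in the lines (25% of 48, against 9.97% of all genes and 16.2% of the other CYP genes) and for 3 that were higher, where 9.61% of all genes were. In bulk leaf RNA, fewer cells of a type and less RNA per cell cannot be told apart.

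The families leaned to negative fold changes without passing the test gene by gene. Of the 48 genes, 38 had a negative log2 fold change (79.2%, against 58% of all genes and 66.0% of the other tested genes coded CYP) and 10 a positive one. Their median was -0.41 on the log2 scale, with single genes from -1.52 to 1.26, against -0.09 for all tested genes and -0.24 for the 253 other tested genes coded CYP. In 15 genes all the lines lay below all wild type arrays (31.2%, against 21.1% of all genes and 30.8% of the other CYP genes), and in 3 they lay above (15.6% of all genes). The median difference from wild type was -0.30 in line 1, -0.42 in line 2 and -0.27 in line 3. Without line 2 the median over the genes was -0.19, and no scaling or left-out array turned it positive. Line 2 was the lowest of the lines in 25 of the 48 genes (52.1%, against 43.9% of all genes). On its array the spike-in control spots lay 2.75 above the 75th percentile on the log2 scale, against 1.72 to 2.18 on the other arrays. The part of this difference in the levels of line 2 was not tested.

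**Figure D1:**
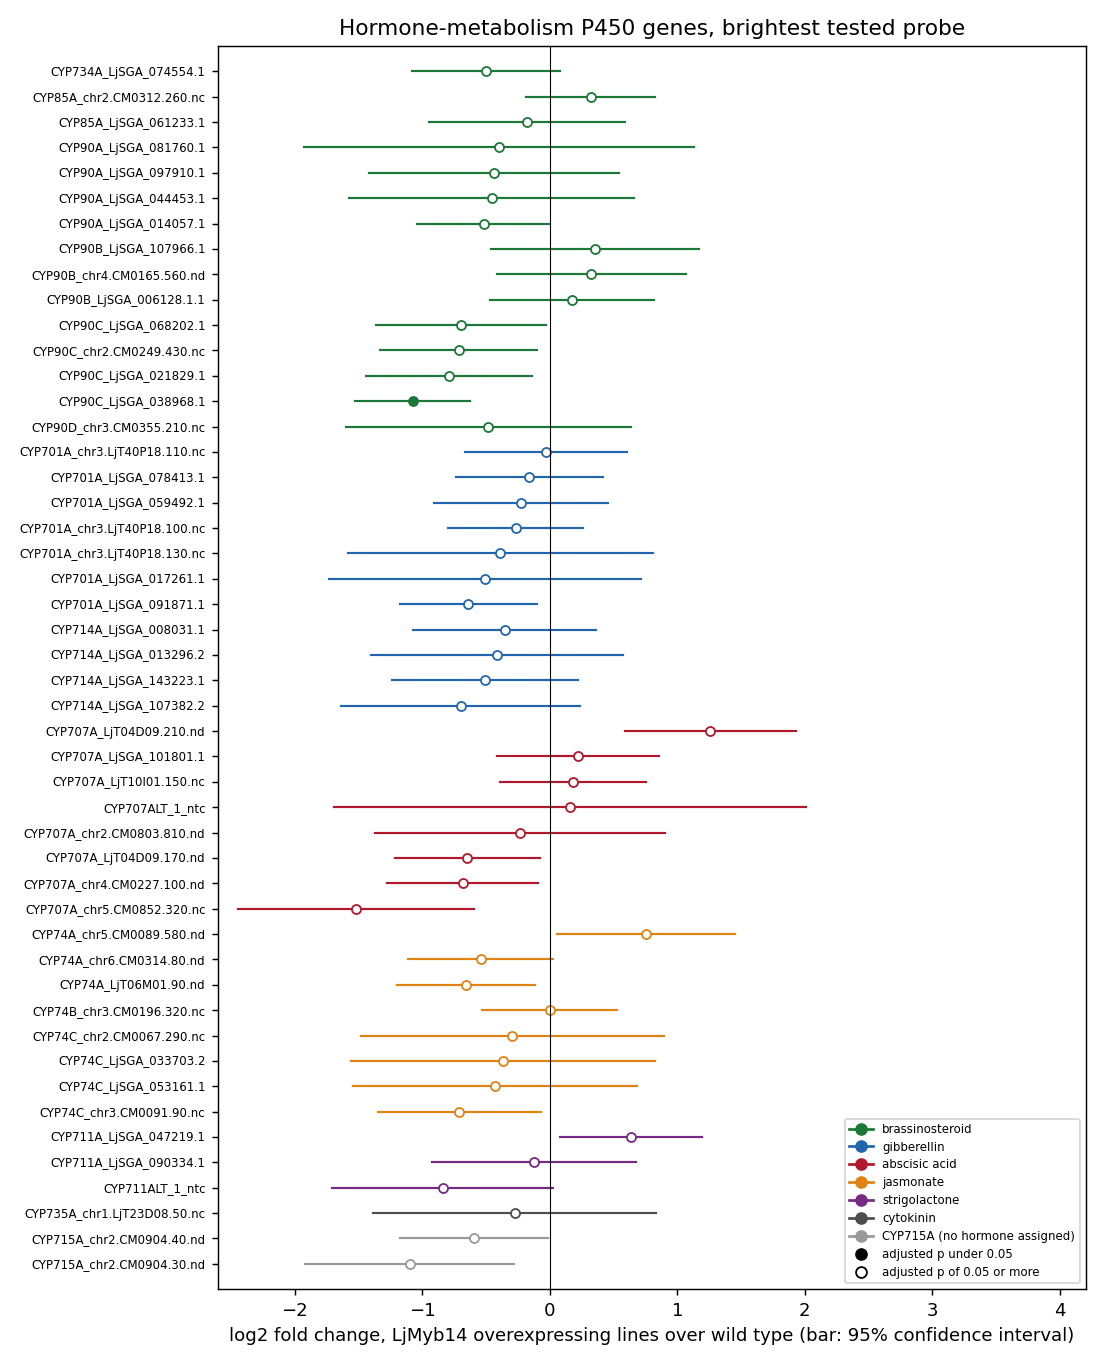
Log2 fold change (x axis) of each of the 48 tested hormone-metabolism P450 genes (y axis) in the overexpressing lines over wild type, coloured by hormone, with 95% confidence intervals as bars; a filled point marks an adjusted p under 0.05. Most points lie left of 0, and the filled point is CYP90C_LjSGA_038968.1 at -1.07.

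Brassinosteroid synthesis held the called gene. CYP90C enzymes are steroid hydroxylases, and the Arabidopsis member is ROTUNDIFOLIA3, named for the short, round leaves of its mutant. CYP90C_LjSGA_038968.1 had levels of -0.52, -0.56 and -0.49 in lines 1 to 3, against 0.53, 0.55 and 0.57 on wild type arrays 1 to 3. The lines lay close to each other, as did the wild type arrays, and the groups did not overlap. The log2 fold change was -1.07 (SE 0.18, 95% confidence interval -1.53 to -0.62, adjusted p = 0.0459), a level 2.11-fold lower in the lines. Its other probe read -0.68, -0.93 and -0.59 in the lines and 0.43, 0.27 and 0.42 in wild type (log2 fold change -1.08, adjusted p = 0.0623). The adjusted p lies next to the threshold, and the call ended in 10 of 19 alternative settings, although the fold change stayed between -1.22 and -0.94 in all of them. Among these, it ended without wild type array 2 (adjusted p = 0.346), without arrays 1 and 3 together (0.336), without line 1 (0.211) and without line 3 (0.0876), and it held without line 2 (0.0344).

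The other CYP90C genes pointed the same way as the called one but did not pass the test. CYP90C_chr2.CM0249.430.nc, whose name places it on chromosome 2, read 0.17, 0.76 and 0.38 in the lines and 1.25, 1.07 and 1.22 in wild type (log2 fold change -0.71, adjusted p = 0.203). CYP90C_LjSGA_021829.1 read -4.18, -4.82 and -4.56 in the lines and -3.58, -3.86 and -3.62 in wild type (-0.79, adjusted p = 0.186, and -0.28 under normexp). CYP90C_LjSGA_068202.1 read -2.32, -2.05 and -2.77 in the lines and -1.75, -1.69 and -1.61 in wild type (-0.70, adjusted p = 0.243). In each of these genes all the lines lay below all wild type arrays, so CYP90C was separated in 4 of its 4 genes, where 21.1% of all genes and 30.8% of the other CYP genes were. The family median was -0.75, or -0.81, -0.74 and -0.94 in lines 1 to 3, and all 4 fold changes stayed negative in every setting that was run. Second probes of CYP90C_chr2.CM0249.430.nc and CYP90C_LjSGA_068202.1 gave -0.78 and -0.77, and that of CYP90C_LjSGA_021829.1 did not exceed background clearly on any array.

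CYP90D acts beside CYP90C as a partly redundant hydroxylase in Arabidopsis. CYP90D_chr3.CM0355.210.nc had levels of -2.38, -2.06 and -3.32 in lines 1 to 3, against -1.80, -2.46 and -1.70 on wild type arrays 1 to 3. Line 3 was the low sample, line 2 lay above wild type array 2, and the groups overlapped (log2 fold change -0.48, 95% confidence interval -1.60 to 0.64, adjusted p = 0.624). The fold change was -0.11 without line 3, -0.75 without line 2, -0.84 without wild type array 2 and -0.13 without wild type arrays 1 and 3.

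In the CYP90B genes and in all CYP90A genes but CYP90A_LjSGA_014057.1, the range of the lines was wider than the difference between the groups. CYP90B enzymes, known in Arabidopsis as DWARF4, carry out an early hydroxylation that limits the rate of the pathway. CYP90B_LjSGA_107966.1 read -0.98, -1.57 and -0.66 in lines 1 to 3 and -1.22, -1.61 and -1.27 in wild type, a log2 fold change of 0.35 (95% confidence interval -0.46 to 1.17, adjusted p = 0.621). The 3 CYP90B genes had fold changes between 0.17 and 0.35, which stayed positive in every setting that was run (from 0.031 with spike-in centring to 0.60 without line 2), but line 2 lay below the wild type mean in each of them and none was called. CYP90B was the 1 family of 3 or more tested genes in which every fold change was positive.

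CYP90A, known in Arabidopsis as CPD, oxidises the sterol ring. CYP90A_LjSGA_014057.1 read 1.46, 1.67 and 1.39 in the lines and 1.92, 2.15 and 1.86 in wild type. The groups did not overlap, but the interval of the difference reached 0 (log2 fold change -0.52, 95% confidence interval -1.04 to 0.01, adjusted p = 0.254). Its second probe gave -0.71 (95% confidence interval -1.31 to -0.10) and was not called either (adjusted p = 0.201). The remaining CYP90A genes had fold changes between -0.46 and -0.40 that came mainly from line 2. CYP90A_LjSGA_044453.1, for example, read -0.65, -1.63 and -0.17 in lines 1 to 3, against -0.27, -0.40 and -0.38 in wild type, so that line 3 was above and line 2 far below all wild type arrays. CYP90A_LjSGA_081760.1 had the same order, with -3.23, -4.30 and -2.18 in the lines and -2.69, -2.97 and -2.71 in wild type, and so did CYP90A_LjSGA_097910.1.

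**Figure D2:**
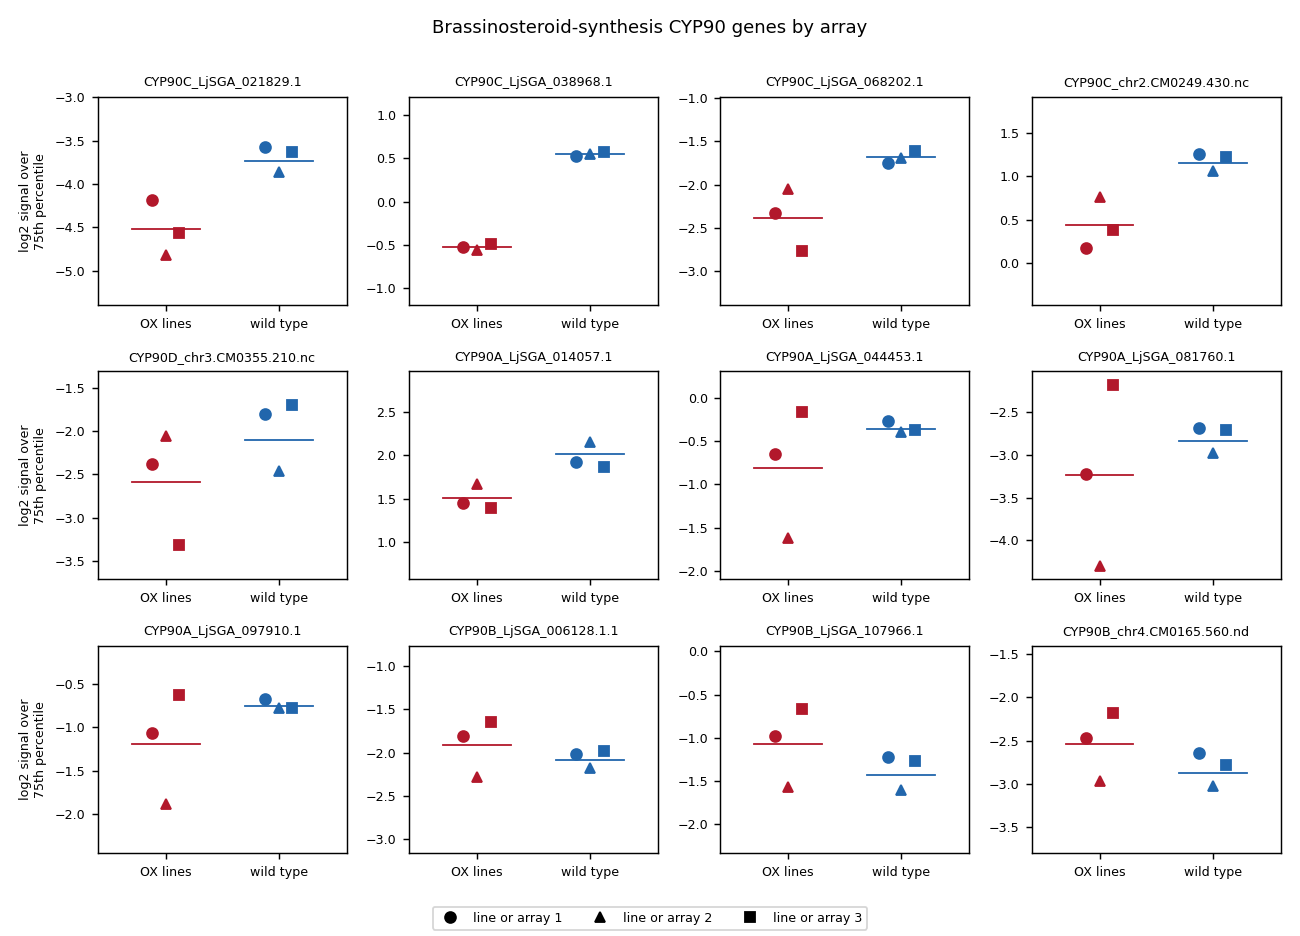
Log2 signal over the array's 75th percentile (y axis, 1 panel per gene, each with its own range) of the 12 tested CYP90 genes in the overexpressing lines and wild type (x axis); symbols mark line or array 1, 2 and 3 and horizontal lines the group means, with wild type arrays 1 and 3 averaged first. In the 4 CYP90C panels all line points lie below all wild type points, while in 3 of the 4 CYP90A panels line 3 lies above and line 2 below every wild type point.

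The last synthetic step and the inactivating step showed no called change. CYP85A enzymes complete the active hormone. CYP85A_chr2.CM0312.260.nc read -4.24, -4.20 and -3.94 in the lines and -4.73, -4.45 and -4.15 in wild type (log2 fold change 0.32, adjusted p = 0.457), and its other probe gave -0.10, of opposite sign. CYP85A_LjSGA_061233.1 was near background (-0.18). CYP734A_LjSGA_074554.1, of the family that inactivates brassinosteroids, read -4.13, -3.93 and -3.63 in the lines and -3.31, -3.31 and -3.65 in wild type (log2 fold change -0.50, 95% confidence interval -1.08 to 0.08, adjusted p = 0.311).

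All 11 gibberellin genes had negative fold changes, although CYP701A_chr3.LjT40P18.110.nc turned positive under some scalings, and none was called. The CYP701A enzymes, ent-kaurene oxidases, work at the early, plastid-linked part of the pathway, and some CYP714A enzymes inactivate gibberellins in Arabidopsis. The 7 CYP701A genes had a median log2 fold change of -0.27 (-0.14, -0.41 and -0.30 in lines 1 to 3) and the 4 CYP714A genes one of -0.46 (-0.75, -0.62 and -0.18). The CYP714A genes were negative in all settings, whereas this CYP701A gene turned positive under quantile normalization, with centring on the median probe, with no scaling, with the 75th percentile of probes above background, or with the slide row as a block, and CYP701A genes also turned positive with some arrays left out.

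CYP701A_LjSGA_091871.1 had the smallest p of the gibberellin genes. Its levels were -3.09, -2.82 and -3.23 in lines 1 to 3, against -2.34, -2.39 and -2.53 on wild type arrays 1 to 3, and the groups did not overlap (log2 fold change -0.64, 95% confidence interval -1.17 to -0.10, adjusted p = 0.195). CYP701A_chr3.LjT40P18.110.nc read 0.02, 0.07 and -0.39 in the lines and 0.13, -0.28 and 0.15 in wild type, which overlap throughout (log2 fold change -0.03, 95% confidence interval -0.67 to 0.61). The names place it on chromosome 3 with CYP701A_chr3.LjT40P18.100.nc and CYP701A_chr3.LjT40P18.130.nc on the same clone, whose fold changes were -0.27 and -0.39.

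Among the CYP714A genes the lines were spread. CYP714A_LjSGA_107382.2 read -3.31, -3.85 and -2.70 in the lines and -2.30, -2.76 and -2.52 in wild type (log2 fold change -0.70, adjusted p = 0.380). CYP714A_LjSGA_143223.1 read -3.58, -2.90 and -2.85 in the lines and -2.38, -2.71 and -2.61 in wild type (-0.51, adjusted p = 0.411). CYP714A_LjSGA_008031.1 read -0.23, 0.58 and 0.23 in the lines and 0.55, 0.51 and 0.60 in wild type (-0.35, adjusted p = 0.572). Which line was lowest differed from gene to gene. At the brightest probe, CYP714A_LjSGA_143223.1 was the 1 CYP714A gene whose groups did not overlap. Its second probe read -3.87, -3.86 and -3.35 in the lines and -3.38, -3.82 and -3.33 in wild type. There the groups overlapped (log2 fold change -0.11, adjusted p = 0.878).

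The abscisic acid 8'-hydroxylase family CYP707A held the lowest and the highest fold change of all 48 genes. CYP707A enzymes start the main route of abscisic acid breakdown, and plants carry several copies with different sites and times of expression. CYP707A_chr5.CM0852.320.nc, placed on chromosome 5 by its name, read -2.25, -1.13 and -1.83 in lines 1 to 3, against -0.40, -0.05 and -0.35 on wild type arrays 1 to 3. Every line lay below every wild type array, with line 2 the nearest. The means were -1.74 ± 0.57 in the lines (SD, n = 3) and -0.22 ± 0.23 in wild type (SD, n = 2), a log2 fold change of -1.52 (95% confidence interval -2.45 to -0.59) or a level 2.87-fold lower, and the limma adjusted p was 0.103. The second probe read -2.36, -1.76 and -1.83 in the lines and -0.67, -0.41 and -0.70 in wild type (log2 fold change -1.43, adjusted p = 0.0566). Its brightest probe was called in 3 of 19 alternatives: with the 6 arrays counted singly (0.0292), with the replicate number as a block (0.0310), and without line 2 (0.0248).

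CYP707A_LjT04D09.210.nd went the other way. It read -3.72, -4.38 and -3.82 in the lines and -5.29, -5.20 and -5.24 in wild type, and every line lay above every wild type array. The log2 fold change was 1.26 (95% confidence interval 0.59 to 1.93), a level 2.39-fold higher in the lines, and the limma adjusted p was 0.0790. It was called in 5 of 19 alternatives, while under normexp background correction the fold change was 0.19. Its neighbour by name on the same clone, CYP707A_LjT04D09.170.nd, read -5.16, -5.57 and -5.61 in the lines and -5.06, -4.76 and -4.62 in wild type (log2 fold change -0.64, adjusted p = 0.209). The second probe of either gene did not exceed background clearly on any array.

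Of the other CYP707A genes, CYP707A_chr4.CM0227.100.nd had separate groups, with -1.53, -1.58 and -1.07 in the lines and -0.73, -0.68 and -0.76 in wild type (log2 fold change -0.68, adjusted p = 0.203). CYP707ALT_1_ntc read 1.45, 0.02 and 2.26 in the lines and 1.91, 0.42 and 1.57 in wild type. Line 2 and wild type array 2 were the low samples in it, so the spread inside each group exceeded the difference between them (log2 fold change 0.16, 95% confidence interval -1.69 to 2.01). Its second probe read -4.14, -4.02 and -3.69 in the lines and -3.17, -3.77 and -3.18 in wild type and gave -0.48. CYP707A_chr2.CM0803.810.nd also had its lowest levels in line 2 and wild type array 2, at -1.75 and -1.69 (log2 fold change -0.23), and CYP707A_LjSGA_101801.1 and CYP707A_LjT10I01.150.nc had fold changes of 0.22 and 0.18. Thus 4 CYP707A genes had negative and 4 positive fold changes, and the family median was -0.04.

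**Figure D3:**
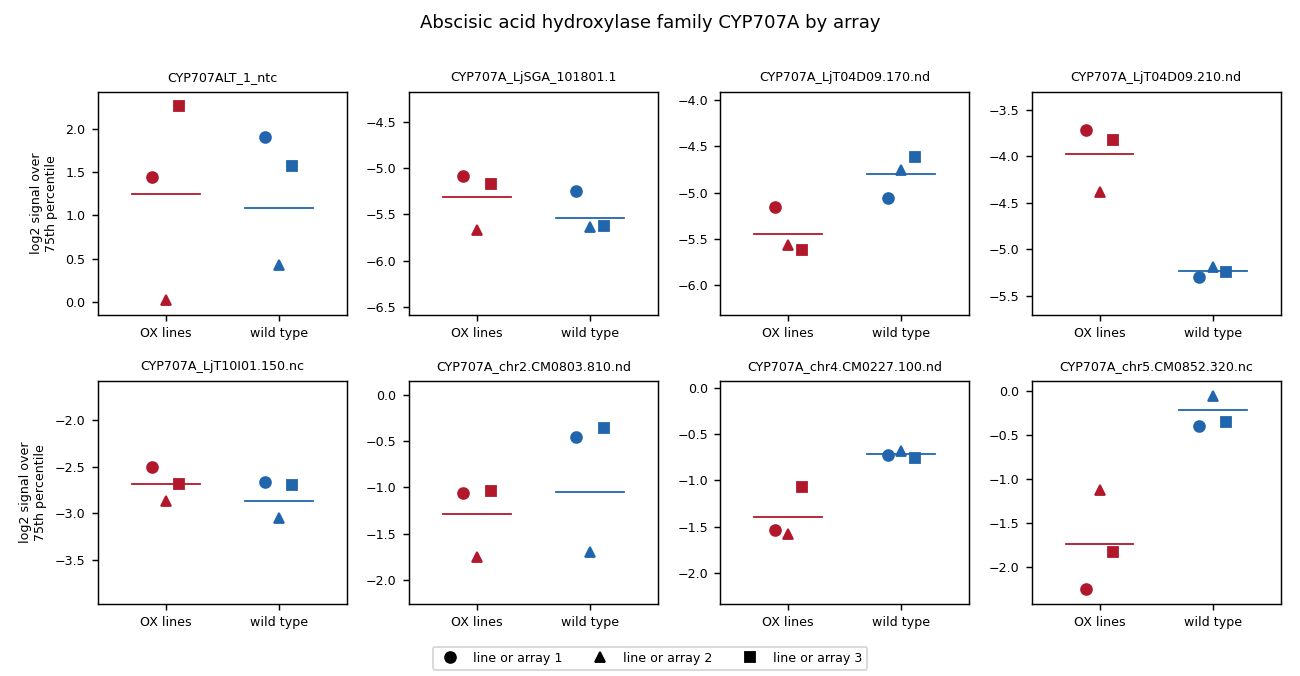
Log2 signal over the array's 75th percentile (y axis, 1 panel per gene, each with its own range) of the 8 CYP707A genes in the overexpressing lines and wild type (x axis); symbols mark line or array 1, 2 and 3 and horizontal lines the group means, with wild type arrays 1 and 3 averaged first. The lines lie below wild type in CYP707A_chr5.CM0852.320.nc, CYP707A_chr4.CM0227.100.nd and CYP707A_LjT04D09.170.nd and above it in CYP707A_LjT04D09.210.nd.

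CYP74 enzymes need no added oxygen and rearrange fatty acid hydroperoxides. CYP74A enzymes, allene oxide synthases, lead to jasmonate, CYP74B enzymes, hydroperoxide lyases, use the same kind of substrate to make green leaf volatiles, and CYP74C enzymes of other plants include both activities. Of the 8 genes, 7 had a negative fold change, with CYP74B at 0.00 and turning positive under normexp, median centring or no scaling, and none was called. The CYP74C genes kept their sign under those scalings but not with the slide row as a block, as given below. The allene oxide synthase gene CYP74A_chr5.CM0089.580.nd was the positive one. It read 3.14, 3.55 and 2.78 in lines 1 to 3, against 2.42, 2.39 and 2.41 on wild type arrays 1 to 3, and each line lay above each wild type array. Its log2 fold change was 0.75 (95% confidence interval 0.05 to 1.45), a level 1.69-fold higher, and the limma adjusted p was 0.227. The second probe read -1.53, -2.39 and -1.01 in the lines and -1.69, -2.07 and -1.64 in wild type, groups that overlapped (0.22, adjusted p = 0.838).

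The remaining CYP74A genes had negative fold changes. CYP74A_LjT06M01.90.nd read -3.48, -3.77 and -3.46 in the lines and -2.78, -3.04 and -2.80 in wild type (log2 fold change -0.66, adjusted p = 0.185). Its second probe gave 0.55, of opposite sign, and the probes differed by 1.21, the widest gap of the 38 genes with both probes tested. CYP74A_chr6.CM0314.80.nd had a log2 fold change of -0.54 (adjusted p = 0.264), again with all the lines below wild type.

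The hydroperoxide lyase gene was level between the groups at its brightest probe. CYP74B_chr3.CM0196.320.nc read 5.31, 5.59 and 5.19 in the lines and 5.35, 5.38 and 5.35 in wild type. Lines lay on either side of the wild type arrays, and the 95% confidence interval of the log2 fold change, -0.53 to 0.53, leaves changes of that size in either direction possible. Its second probe read 4.39, 4.59 and 4.55 in the lines and 4.60, 4.74 and 4.60 in wild type. There every line lay below every wild type array, by a small margin (log2 fold change -0.16, adjusted p = 0.720).

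Line 1 was the highest of the lines in most CYP74C genes. It lay in the same slide row as all wild type arrays, and lines 2 and 3 lay in the other row, so line and slide row cannot be told apart here. In CYP74C_LjSGA_033703.2 the lines read -1.85, -3.25 and -3.22, against -2.47, -2.31 and -2.52 in wild type, so line 1 was above and lines 2 and 3 below all wild type arrays. In CYP74C_LjSGA_053161.1, too, line 1 was above and lines 2 and 3 below wild type, at -0.89, -1.89 and -2.31 in the lines and -1.36, -1.13 and -1.44 in wild type. CYP74C_chr2.CM0067.290.nc read 1.11, 0.46 and -0.44 in the lines and 0.47, 0.86 and 0.48 in wild type, with line 1 highest and line 3 lowest of the 6 arrays. CYP74C_chr3.CM0091.90.nc was different, at 2.01, 2.64 and 2.19 in the lines and 2.96, 2.98 and 3.04 in wild type, with no overlap (log2 fold change -0.71, adjusted p = 0.215) and -0.78 at its second probe. Over the 4 CYP74C genes the median difference was 0.41 in line 1, -0.49 in line 2 and -0.93 in line 3. The family's median log2 fold change of -0.40 became 0.41 with the slide row as a block, where 3 of the 4 genes were positive. That fit sets only line 1 against wild type, so it repeats the line 1 value. Without line 3, 1 gene was positive (0.12).

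**Figure D4:**
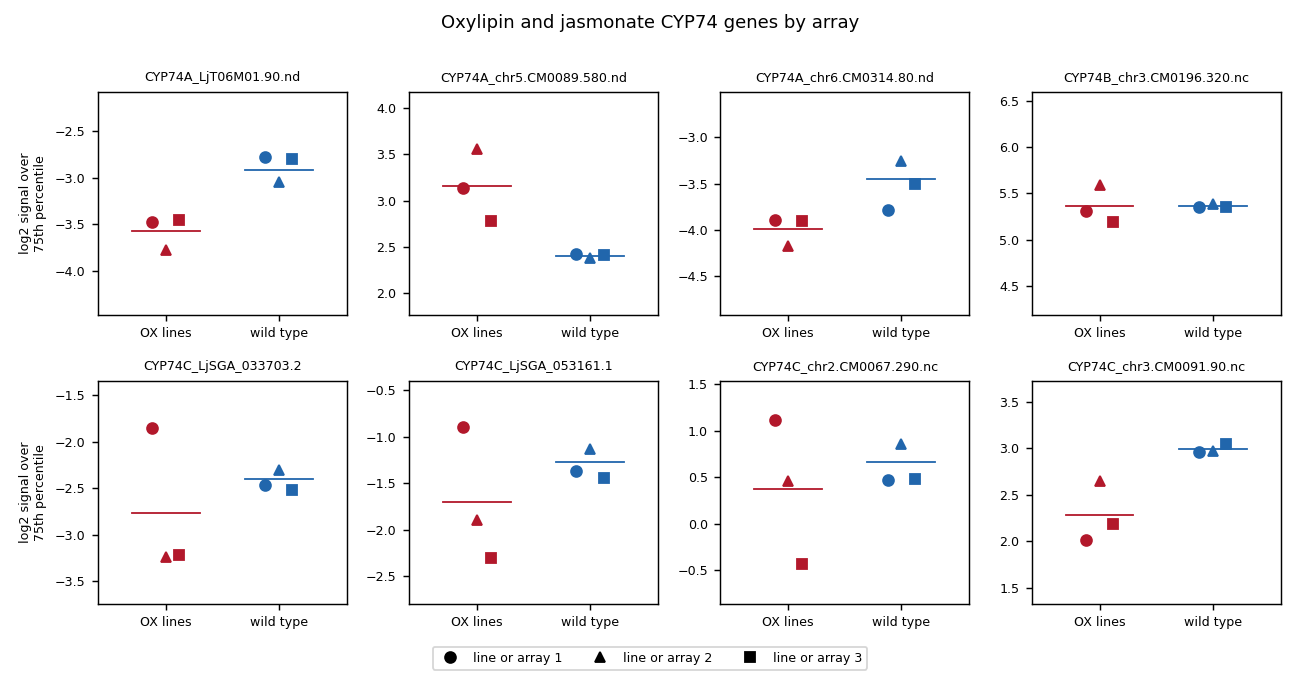
Log2 signal over the array's 75th percentile (y axis, 1 panel per gene, each with its own range) of the 8 CYP74 genes in the overexpressing lines and wild type (x axis); symbols mark line or array 1, 2 and 3 and horizontal lines the group means, with wild type arrays 1 and 3 averaged first. CYP74A_chr5.CM0089.580.nd lies higher in every line, CYP74C_chr3.CM0091.90.nc lower, and in the other CYP74C panels line 1 is the highest line.

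The strigolactone, cytokinin and CYP715A genes all had low signals. CYP711A enzymes, known from the Arabidopsis branching mutant max1, oxidise the strigolactone precursor carlactone. CYP711A_LjSGA_047219.1 read -4.92, -4.74 and -4.86 in the lines and -5.39, -5.26 and -6.00 in wild type, where it was well above background on 2 of the 3 arrays. Each line lay above each wild type array (log2 fold change 0.64, 95% confidence interval 0.08 to 1.19, adjusted p = 0.203), and the other probe gave 0.87. Under normexp background correction the fold change was 0.090, against 0.42 with wild type arrays 1 and 3 left out. CYP711ALT_1_ntc had the opposite order, with -3.81, -3.37 and -4.13 in the lines and -3.27, -2.55 and -3.35 in wild type (-0.84, adjusted p = 0.262, and -0.93 at the other probe), and its fold change was -0.40 under normexp and -0.46 without wild type array 2. CYP711A_LjSGA_090334.1 overlapped between the groups (-0.12, adjusted p = 0.880), and CYP711A_LjSGA_060583.1 was not above background on any array.

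CYP735A_chr1.LjT23D08.50.nc, of the cytokinin hydroxylases, read -5.73, -6.06 and -5.59 in the lines and -4.70, -6.22 and -4.93 in wild type. Wild type array 2 was below all the lines and the other wild type arrays above them (log2 fold change -0.27, 95% confidence interval -1.38 to 0.84). The fold change was -0.97 without wild type array 2 and 0.43 without arrays 1 and 3, so the choice of wild type array set its direction. CYP715A_chr2.CM0904.30.nd read -7.08, -6.38 and -6.80 in the lines and -5.57, -5.30 and -6.45 in wild type, a log2 fold change of -1.10 or 2.14-fold lower (adjusted p = 0.158). Line 2 lay above wild type array 3 in it. CYP715A_chr2.CM0904.40.nd, beside it by name on chromosome 2, read -5.55, -5.98 and -5.50 in the lines and -4.81, -5.12 and -5.30 in wild type (-0.59, adjusted p = 0.246). Under normexp background correction the fold changes of the pair were -0.15 and -0.14. Of the CYP715A genes, CYP715A_chr2.CM0904.60.nd and CYP715A_chr5.CM0148.70.nd did not exceed background clearly on any array.

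The median SD in these genes was 0.34 over the 3 lines and 0.19 over the 2 wild type samples, 1 of which is a mean of 2 arrays. The values rest on unequal numbers of samples and cannot be compared directly. Where both probes of a gene were tested, in 38 genes, the fold changes had the same sign in 34, and their median gap was 0.0969. The 4 genes of opposite sign were CYP701A_chr3.LjT40P18.100.nc, CYP707ALT_1_ntc, CYP74A_LjT06M01.90.nd and CYP85A_chr2.CM0312.260.nc. In CYP90C, CYP714A, CYP701A, CYP74A, CYP734A, CYP735A and CYP715A each line's family median was below the wild type mean. In CYP90A, CYP90B, CYP90D, CYP85A, CYP707A, CYP74B, CYP74C and CYP711A the lines fell on both sides of it.

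**Figure D5:**
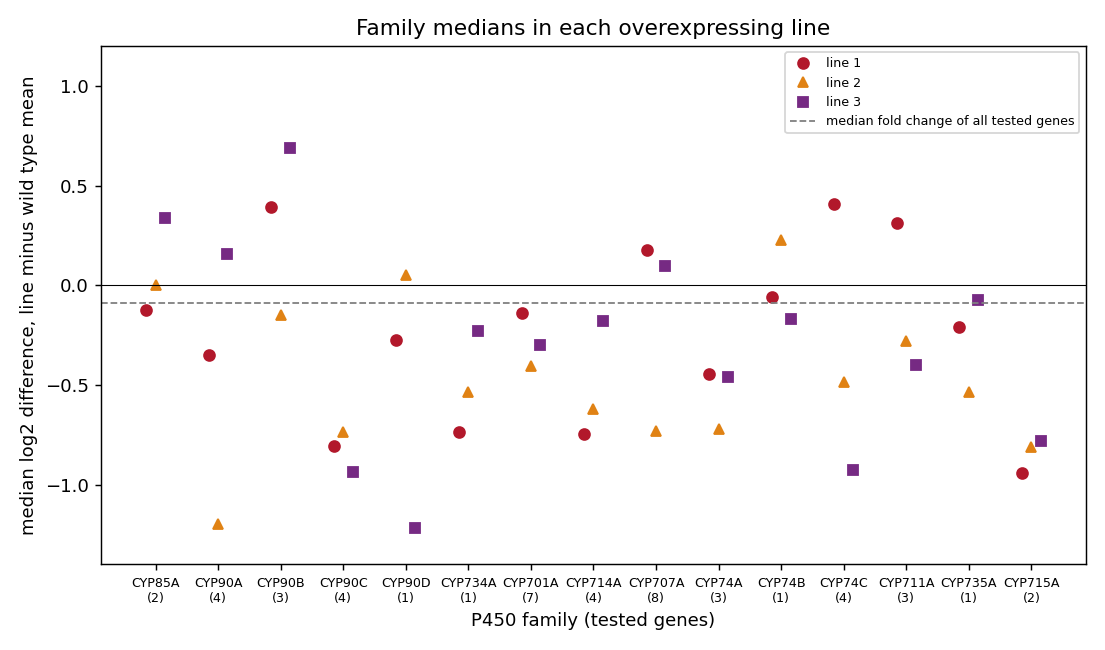
Median log2 difference from the wild type mean (y axis) in each P450 family (x axis, number of tested genes in parentheses) for lines 1, 2 and 3; the dashed line is the median log2 fold change of all 2487 tested genes, -0.09. The CYP90C points lie close together between -0.94 and -0.74, while those of CYP90A, CYP90B, CYP707A and CYP74C lie on both sides of 0.

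The array carries further genes of the same hormone pathways, which give the setting for these values. The CYP724A genes, from a sterol side-chain hydroxylase family of brassinosteroid synthesis, had 2 of 4 tested genes called lower, where 1.09% of all genes were. These were CYP724A_chr2.CM0262.110.nd (log2 fold change -2.37, limma adjusted p = 0.0237) and CYP724A_chr2.CM0262.120.nd (-2.46, adjusted p = 0.0288). CYP724A_chr1.CM0001.640.nc was not called at its brightest probe (-2.10, adjusted p = 0.0838) but was at its other probe (-2.25, adjusted p = 0.0288). Of the CYP88A genes, whose family oxidises ent-kaurenoic acid in gibberellin synthesis, 1 of 8 tested was called lower, CYP88A_chr2.CM0021.680.nc (-3.43, adjusted p = 0.0125). It was well above background on all 3 wild type arrays but on only 1 of the 3 lines, and its other probe on none of the lines. The size of its fold change therefore depends on the background. All 8 CYP88A genes were negative, with a median of -0.52. The other lists had no called gene. The CYP94C and CYP94B genes, relatives of the Arabidopsis enzymes that oxidise jasmonoyl-isoleucine, had medians of -0.37 (3 tested) and -0.34 (1 tested). The median was -0.31 for 2 tested CYP722 genes, -0.23 for 4 genes with the brassinosteroid regulator code BES, all negative, and 0.03 for 35 GRAS genes, of which 15 were negative and 20 positive.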

How the data were processed

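RNA from 6 leaf samples was hybridised to 6 custom 1-colour arrays on 1 slide with 1 scan time. The deposited intensity of each spot is the Agilent Feature Extraction processed signal (version 10.7.3.1, per the submitters' processing notes), which, per the file headers, has background and spatial trend removed within the array but carries no scaling across arrays. The series' value table held the same intensities. From these, log2 intensity minus the array's 75th percentile was computed over 14642 non-control spots, outlier spots were left out and spots of a probe averaged. Probes well above background in at least 0.5 of their spots on at least 3 arrays were tested with limma 3.58.1 in R 4.3.3 (3 residual plus 2.54 prior degrees of freedom). The number of arrays limits the precision. The variance between wild type arrays 1 and 3 was 0.550 times that expected from spot noise, against 2.27 to 8.79 for the other pairs within a group, so they were averaged.

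Named genes were those with a called probe, up to 3 genes of smallest p per hormone and the gene of highest mean level per family; others were named after their values were seen, to complete a family. Members, lists and the averaging were chosen with earlier results of these data known. Alternatives covered background correction, scaling, filters, replicates and slide row. The build behind the names was not given in the sources used here, and no name matched the RefSeq gene table for Lotus japonicus.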

Additional observations from a re-analysis of the deposited data

How the results depend on the processing

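Under 19 alternatives, 22 of the 27 genes named by rule kept their sign. Genes named after their values were seen were not in this count. Of the hormone-metabolism P450 probes, 1 was called lower and 0 higher. An unadjusted limma p under 0.05 was found for 1003 of all 5038 tested probes and for 23 of the 86 P450 probes. The count of lower probes was 3 with normexp on the median spot signal (chosen after the data were seen; the planned version on the mean spot signal was not run), 2 with quantile normalization, 2 with the filter on all 6 arrays, 8 with 6 arrays counted singly, and 0 with centring on the median probe, no scaling, spike-in centring, no filter, the slide row as a block, or without wild type arrays 1 and 3. The count of higher probes was 1 with quantile normalization, median centring and 6 arrays counted singly. With the replicate block, which pairs samples that share only a number (correlations of same-numbered deviations 0.00987, 0.171 and 0.0732), 4 probes were lower and 1 higher. Leaving out each replicate gave 0 to 5 lower (5 without line 2; 0 without line 1, line 3 or wild type array 2) and 0 to 1 higher. Over all probes, 116 higher and 57 lower calls became 342 and 297 with 6 arrays, 235 and 138 with the replicate block, 13 and 7 with spike-in centring (which moved the median of all probes by -0.14), 2 and 0 with the slide row, 4 and 0 without wild type arrays 1 and 3, 168 and 82 with normexp, 86 and 24 with no filter, and 118 and 37 without scaling. Leaving out line 1 gave 13 and 2, line 2 272 and 167, line 3 47 and 30, and wild type array 2 7 and 1. The share of higher calls, 67.1% in the fit reported, was 76.1% without scaling, 73.7% with median centring and 69.9% with quantile normalization.

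The median log2 fold change, -0.41, was -0.19 with normexp, -0.32 without scaling, -0.55 with spike-in centring and -0.29 without wild type arrays 1 and 3. With the slide row it was -0.30, which restates the value of line 1, as that fit sets only line 1 against wild type. With single replicates left out, the median ran from -0.50 (without wild type array 2) to -0.19 (without line 2). Outside the 27 genes named by rule, others also changed sign, besides the CYP74C and CYP701A genes given above. Among them, 1 CYP90A gene was positive (0.13) without line 2, and both CYP85A genes were positive without wild type arrays 1 and 3. The genes named by rule that changed sign, given next, were not called. CYP701A_chr3.LjT40P18.110.nc was 0.025 with quantile normalization, 0.031 with median centring, 0.058 without scaling, 0.0065 with the percentile of probes above background, 0.093 with the slide row, 0.18 without wild type arrays 1 and 3, and -0.24 to 0.12 over left-out replicates. CYP74B_chr3.CM0196.320.nc was 0.013 with normexp, 0.059 with median centring, 0.086 without scaling, 0.035 with that percentile, 0.0046 with 6 arrays or the replicate block, and -0.11 to 0.084 over left-out replicates. Its negative values included -0.38 with quantile normalization and -0.14 with spike-in centring. CYP707ALT_1_ntc was -0.059 with 6 arrays or the replicate block, -0.16 as a mean of probes, and -0.50 to 0.77 over left-out replicates. CYP711A_LjSGA_090334.1 was 0.31 with the slide row, 0.18 without wild type arrays 1 and 3, and -0.42 to 0.016 over left-out replicates, and CYP735A_chr1.LjT23D08.50.nc was 0.43 without wild type arrays 1 and 3 and -0.97 to -0.14 over left-out replicates. The cause was not tested.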
